A study of Mus musculus with 12 samples.

Results

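The genes described here encode 10 chaperones and folding enzymes of the lumen of the endoplasmic reticulum (ER): Hspa5, Hsp90b1, Manf, Pdia4, Pdia6, Calr, Sdf2l1, Dnajb11, Hyou1 and Creld2. They were taken by symbol from a table of read counts that lists 54427 genes, and all 10 were among the 17227 genes with enough counts to be tested. Hippocampal RNA of mice was sequenced in 12 libraries, 3 in each of 4 groups, and the labels give neither the age and sex of the mice nor whether the replicates are separate animals. The spread behind each p-value is therefore that of libraries, and part of it may be technical. The group 5xFAD;Ulk1OV carries both genotypes, 5xFAD carries mutant human transgenes that drive amyloid formation and that neurons express, Ulk1OV overexpresses ULK1, the kinase that starts autophagy, and WT carries neither. The sources used here do not give the construct behind Ulk1OV, its promoter or the cells that express it.

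Proteins that enter the secretory pathway fold in the ER lumen. There, Hsp70 and Hsp90 family chaperones, lectins and disulfide isomerases hold and rearrange them until they can leave for the Golgi. When unfolded protein accumulates, the sensors ATF6, IRE1 and PERK start the unfolded protein response, and the ATF6 and XBP1 transcription factors raise the genes of these chaperones together. Neurons and glia of the hippocampus depend on this machinery for receptors, channels and secreted proteins.

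Total counts per library lay between 16149992 and 18547132. Mitochondrially encoded genes took 6.40% to 8.76% of counts in Ulk1OV, against 5.05% to 5.42% in WT. Summed markers were present in all 12 libraries for dentate granule neurons and pyramidal neurons, the principal cells of the hippocampus, at 176 to 413 and 612 to 1008 CPM (read counts scaled to a common library size). One label was contradicted by its library, that of 5xFAD;Ulk1OV replicate 3. App, the amyloid precursor gene, stood at 1310 CPM in it and at 2201 to 2667 CPM in the other 5 libraries of 5xFAD genotype, against 1241 to 1493 CPM in the 6 libraries of the remaining groups. Comparisons of this group are also given without it. Ulk1 itself had 84.6 to 102 CPM in the libraries with a Ulk1OV label, against 63.5 to 86.3 CPM in those without, and the ranges overlapped slightly.

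The promoters of these genes are the textbook targets of ATF6, which acts through the ER stress response element. This motif joins CCAAT, a site for the factor NF-Y, to CCACG, a site for ATF6, over 9 bases of any kind. Promoter windows from RefSeq (GRCm38.p6), reaching from 250 bases before each transcription start to 50 after it, were found for 8 of the 10 genes, all but Manf and Hyou1. Both strands were searched. The element was present in 5 of the 8 windows, against 39 of 32851 windows of all genes, which is 0.119%. The second form, ATTGG and CCACG joined by 1 base of any kind, was present in the window of Dnajb11 and in 0.0365% of all windows. The core TGACGTG was present in the window of Hspa5 and in 2.01% of all windows. The ends of the element, CCAAT and CCACG, were each present in all 8 windows, counting the copies inside the element, and in 37.4% and 32.8% of all windows. The stretches around the elements are shown because 5 genes share the first form and Dnajb11 carries the second, with the elements in capitals and each sequence read 5′ to 3′ on the strand of its gene.
Hspa5 (chr2:34771900-34772089, plus strand): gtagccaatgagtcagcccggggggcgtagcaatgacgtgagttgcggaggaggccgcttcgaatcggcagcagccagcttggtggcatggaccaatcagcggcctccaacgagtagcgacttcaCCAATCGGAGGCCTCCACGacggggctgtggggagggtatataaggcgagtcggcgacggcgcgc
Hsp90b1 (chr10:86705503-86705686, minus strand): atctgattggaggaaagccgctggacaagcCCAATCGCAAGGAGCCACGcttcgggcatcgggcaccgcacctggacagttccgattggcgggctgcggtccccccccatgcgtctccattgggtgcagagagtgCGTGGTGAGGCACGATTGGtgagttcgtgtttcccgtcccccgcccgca
Pdia6 (chr12:17266461-17266539, plus strand): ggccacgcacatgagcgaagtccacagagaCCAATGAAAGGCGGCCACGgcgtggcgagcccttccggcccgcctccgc
Calr (chr8:84847045-84847123, minus strand): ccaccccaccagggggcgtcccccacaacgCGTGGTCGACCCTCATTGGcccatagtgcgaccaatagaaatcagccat
Creld2 (chr15:88819490-88819568, plus strand): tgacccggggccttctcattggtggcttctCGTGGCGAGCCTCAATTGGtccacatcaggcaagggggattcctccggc
Dnajb11 (chr16:22857833-22857862, plus strand): tgtgatgtccccggcggcgATTGGCCCACG
Hsp90b1 held the element on each strand, and in Calr and Creld2 it lay on the strand opposite to the gene. The windows of Pdia4 and Sdf2l1 held neither form as spelled here. These matches describe letters and not binding.

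Levels were compared between genes per kilobase of exon, as CPM divided by exon length in kilobases (RPKM) in WT. Calr, a lectin and calcium store that holds newly made glycoproteins, was the most abundant at 111 ± 12.5 RPKM (SD, n = 3). Hspa5, which encodes BiP, the Hsp70 of the ER, had 57.2 ± 8.60 RPKM and Hsp90b1, which encodes the ER Hsp90 GRP94, had 45.5 ± 3.70 RPKM. The libraries of these neighbours overlapped in level. Pdia6 followed with 26.1 ± 1.66 RPKM, above Pdia4 with 18.6 ± 3.31 RPKM, and both encode protein disulfide isomerases. Pdia4 overlapped in level with Dnajb11 at 15.2 ± 0.337 RPKM, while Hyou1 at 11.9 ± 0.0533 RPKM stood apart from its neighbours. Manf at 10.1 ± 0.377, Sdf2l1 at 9.09 ± 1.46 and Creld2 at 8.52 ± 1.60 RPKM were lowest, and each overlapped with the next. Calr, Hspa5 and Hsp90b1 together took most of the counts of the 10 genes, with 30%, 23.5% and 17.4%. All 10 genes took 0.159% to 0.180% of all counts in Ulk1OV, against 0.0976% to 0.119% in WT.

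Ulk1OV against WT shows what differs with ULK1 overexpression in mice without the 5xFAD transgenes. Of the 10 chaperone genes, 7 rose and the other 3 had higher values in Ulk1OV without passing the test. Calls rest on the quasi-likelihood test of edgeR, its p-values adjusted by Benjamini and Hochberg's method over all tested genes, with the threshold at 0.05, and they made up 5.17% of genes in this comparison, 2.14% rising. The median log2 fold change of the 10 genes was 0.66, against 0.00 over all genes. In each of the 10 genes every Ulk1OV library lay above every WT library, a separation seen in 15% of all genes. In bulk tissue, more RNA per cell and more cells of a type that expresses these genes cannot be told apart.

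Hspa5 (GRCm38 chromosome 2, 34771970 to 34777547), the central chaperone that also keeps the stress sensors inactive, had 409, 413 and 462 CPM in Ulk1OV, against 251, 202 and 273 CPM in WT. All Ulk1OV libraries lay well above the WT libraries. The log2 fold change was 0.82 ± 0.18 (SE), a 1.77-fold rise with an adjusted p of 0.0292. Dnajb11 (chromosome 16, 22857845 to 22879634), which encodes ERdj3, the J-domain partner that hands substrates to BiP, had 55.2, 59.1 and 53.8 CPM in Ulk1OV, against 48.7, 50.6 and 48.7 CPM in WT. The groups were apart by a small margin. Its log2 fold change of 0.19 ± 0.09 did not pass the test (adjusted p = 0.206). Sdf2l1 (chromosome 16, 17130138 to 17132383), which binds ERdj3 and prolongs the BiP cycle, had 13.2, 16.5 and 14.98 CPM in Ulk1OV, against 9.64, 8.72 and 11.9 CPM in WT. This is a shift of 0.56 ± 0.19 that missed the threshold (adjusted p = 0.0907). Hyou1 (chromosome 9, 44379490 to 44392369), a large Hsp70 relative that recharges BiP by nucleotide exchange, had 95.5, 99.3 and 102 CPM in Ulk1OV, against 85.7, 86.3 and 86.4 CPM in WT. The WT libraries hardly differed among themselves, and the log2 fold change of 0.20 ± 0.10 did not pass the test (adjusted p = 0.24). Among the genes of this paragraph, Hspa5 was thus the one called.

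Hsp90b1 (chromosome 10, 86690209 to 86705509), the Hsp90 that matures integrins and Toll-like receptors, had 299.7, 298 and 332 CPM in Ulk1OV, against 187, 167 and 196 CPM in WT. It rose by a log2 fold change of 0.76 ± 0.13 (adjusted p = 0.0199). Part of its exons, 10.3%, overlaps the pseudogene 1810014B01Rik on the opposite strand, and the sources do not say whether counting used strand. Calr (chromosome 8, 84841850 to 84846934) had 477, 527 and 546 CPM in Ulk1OV, against 325, 281 and 353 CPM in WT. It rose by 0.69 ± 0.16 (adjusted p = 0.0299), and the lowest Ulk1OV library stood clear of the highest WT library.

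Pdia4 (chromosome 6, 47796141 to 47813430), a disulfide isomerase with an extra thioredoxin domain, had 59.2, 69.7 and 76.6 CPM in Ulk1OV, against 50.4, 35.5 and 47.8 CPM in WT. Pdia6 (chromosome 12, 17266545 to 17284770), an isomerase that also acts on the sensor IRE1, had 121, 145 and 146 CPM in Ulk1OV, against 103, 90.9 and 98.8 CPM in WT. Both rose, Pdia4 by 0.62 ± 0.16 (adjusted p = 0.0402) and Pdia6 by 0.49 ± 0.13 (adjusted p = 0.0444). Over genes, deviations of log2 CPM from the 12-library mean correlated with GC content. The r was -0.32 to -0.08 in Ulk1OV, 0.10 to 0.18 in WT, 0.10 to 0.30 in 5xFAD;Ulk1OV and -0.33 to 0.01 in 5xFAD. The r was thus lower in Ulk1OV and in 5xFAD than in WT and in 5xFAD;Ulk1OV. This trend therefore differed in every comparison between groups made here. Once trends with GC content and length were removed from each library, neither Pdia4 nor Pdia6 was called, with adjusted p-values of 0.0513 and 0.0629. This left 5 of the 10 genes called among 2.95% of all genes.

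Manf (chromosome 9, 106838312 to 106891979), a small BiP-binding protein that is also secreted as a neurotrophic factor, had 56.5, 60.9 and 63.4 CPM in Ulk1OV, against 35.7, 34.3 and 37.0 CPM in WT. Its groups were far apart relative to their spread, and its log2 fold change of 0.76 ± 0.11 had the lowest adjusted p of the 10 genes, 0.0113. Creld2 (chromosome 15, 88819646 to 88826683), an ER protein with EGF-like domains that stressed cells secrete, had 18.5, 17.9 and 20.7 CPM in Ulk1OV, against 11.2, 9.70 and 14.01 CPM in WT. It rose by 0.71 ± 0.18 (adjusted p = 0.0431). The plot of CPM by group shows all 10 genes on their own scales.

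**Figure D1:**
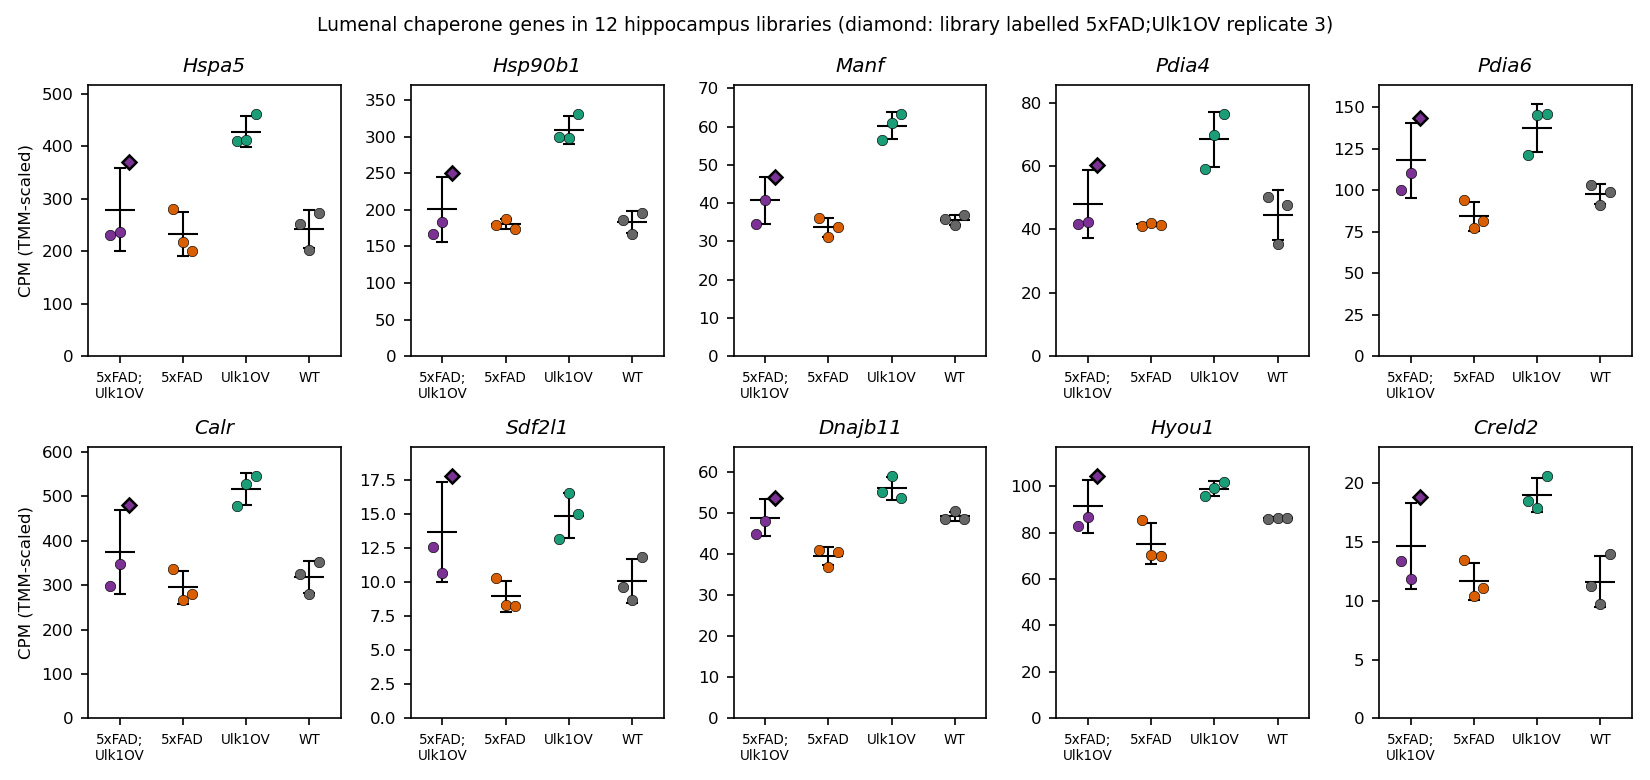
Expression of the 10 chaperone genes in CPM (y axis, from 0) in each library by group (x axis). Points are libraries, the horizontal bar and whiskers are mean ± SD of 3 libraries, and the diamond is the library labelled 5xFAD;Ulk1OV replicate 3. The Ulk1OV libraries lie above the WT libraries in every panel, from 409 to 462 CPM against 202 to 273 CPM for Hspa5, and the diamond lies above the other 2 libraries of its group.

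The calls in this comparison depended on single libraries, while the direction did not. Leaving out Ulk1OV replicate 3, WT replicate 1 or WT replicate 2 ended all 7 calls, and edgeR then called 0 of all genes, although 9, 8 and 8 of the 10 chaperone genes kept an unadjusted p under 0.05, as did 15.9%, 18% and 18.9% of all genes. Leaving out 5xFAD replicate 3 or Ulk1OV replicate 2 left 4 calls in each case, among 3.36% and 5.82% of all genes. Over the 12 libraries left out in turn, the log2 fold change stayed above 0 in all 10 genes, as it was for 50.4% of all genes with every library, at 0.71 to 0.92 for Hspa5 and 0.14 to 0.21 for Dnajb11.

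The comparison of 5xFAD;Ulk1OV with Ulk1OV asked what the 5xFAD genotype changes when ULK1 is overexpressed, and it shares the Ulk1OV libraries with the comparison above. Hsp90b1 and Manf fell, and the other 8 genes had lower values without passing the test. Calls made up 6.1% of all genes, 2.43% falling. The 10 log2 fold changes were all below 0, where 48.4% of all genes were above it, with a median of -0.42, against -0.01 over all genes. Hsp90b1 had 167, 184 and 251 CPM in 5xFAD;Ulk1OV, against 299.7, 298 and 332 CPM in Ulk1OV, a log2 fold change of -0.63 ± 0.13 (adjusted p = 0.0197). Manf had 34.4, 40.9 and 46.9 CPM in 5xFAD;Ulk1OV, against 56.5, 60.9 and 63.4 CPM in Ulk1OV, a change of -0.56 ± 0.11 (adjusted p = 0.0171). In both genes replicate 3 of the double transgenic group was the highest of its group. Beside these falls, 6 of 10 fibroblast markers rose, with sums of 222 to 416 CPM in 5xFAD;Ulk1OV, against 200 to 240 CPM in Ulk1OV, and 5 of 14 activity-induced genes rose. With the GC and length correction 3 of the fibroblast markers and 1 of the activity-induced genes rose. Interneuron markers summed to 790 to 1057 CPM in 5xFAD;Ulk1OV, against 1201 to 1292 CPM in Ulk1OV. Of the 6, 1 fell, or 0 with the correction, and all 6 were below 0 without it. None of these markers was at 0 in all libraries of a group. The mitochondrial share was 4.04% to 5.97% in 5xFAD;Ulk1OV, against 6.40% to 8.76% in Ulk1OV. The part of these differences in the falls was not tested.

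That replicate is the library whose label was contradicted, and it moved the result. Without it, 5 genes fell: Hspa5 with a log2 fold change of -0.86 ± 0.15 (adjusted p = 0.00925), Hsp90b1 with -0.81 ± 0.10 (adjusted p = 0.00302), Manf with -0.66 ± 0.11 (adjusted p = 0.00774), Pdia4 with -0.69 ± 0.14 (adjusted p = 0.0153) and Calr with -0.67 ± 0.13 (adjusted p = 0.0125). This fit called 8.97% of all genes, 3.59% falling. All 10 genes were then apart from Ulk1OV, as were 24% of all genes in that direction, while with the library 4 were apart, against 13.4%. Without 5xFAD;Ulk1OV replicate 1, 5xFAD;Ulk1OV replicate 2 or Ulk1OV replicate 3, edgeR called 0 genes of any kind, and 4, 5 and 6 of the 10 had an unadjusted p under 0.05, among 18.1%, 17.3% and 16.8% of all genes.

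Against 5xFAD, the double transgenic group shows what differs with the Ulk1OV label where both groups carry the 5xFAD label. None of the 10 genes passed edgeR's test, in which calls made up 0.0464% of all genes. By DESeq2, Pdia6 and Dnajb11 were called, among 3.67% of all genes, and 6 of the 10 had an edgeR p under 0.05 before adjustment, among 17.4%. All 10 log2 fold changes were above 0, as were 49.8% over all genes, with a median of 0.29. Sdf2l1 had 12.6, 10.7 and 17.8 CPM in 5xFAD;Ulk1OV, against 10.3, 8.31 and 8.27 CPM in 5xFAD (0.61 ± 0.19, adjusted p = 0.135). Pdia6 had 99.97, 110.4 and 143 CPM in 5xFAD;Ulk1OV, against 94.1, 77.2 and 81.7 CPM in 5xFAD (0.48 ± 0.13, adjusted p = 0.102). Dnajb11 had 44.8, 48.1 and 53.8 CPM in 5xFAD;Ulk1OV, against 41.0, 37.0 and 40.6 CPM in 5xFAD (0.31 ± 0.09, adjusted p = 0.112). In these 3 genes the groups did not overlap, a separation seen in 10.7% of all genes. With the GC and length correction Sdf2l1 was at 0.35 (adjusted p = 0.537), Pdia6 at 0.43 (adjusted p = 0.255) and Dnajb11 at 0.24 (adjusted p = 0.336). All 10 values were still above 0 with it, with a median of 0.25, and 0 of all genes were called. Without replicate 3 the double transgenic group gave a median of 0.16 with 9 of the 10 values above 0 and 0 calls by edgeR, among 0.0682% of all genes, 3 of the 10 having an unadjusted p under 0.05, among 17.6%. The values were then 0.02 ± 0.15 for Hspa5 and -0.02 ± 0.10 for Hsp90b1. With the correction as well, the median was 0.10 and Sdf2l1 was at 0.09 (adjusted p = 0.888).

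**Figure D2:**
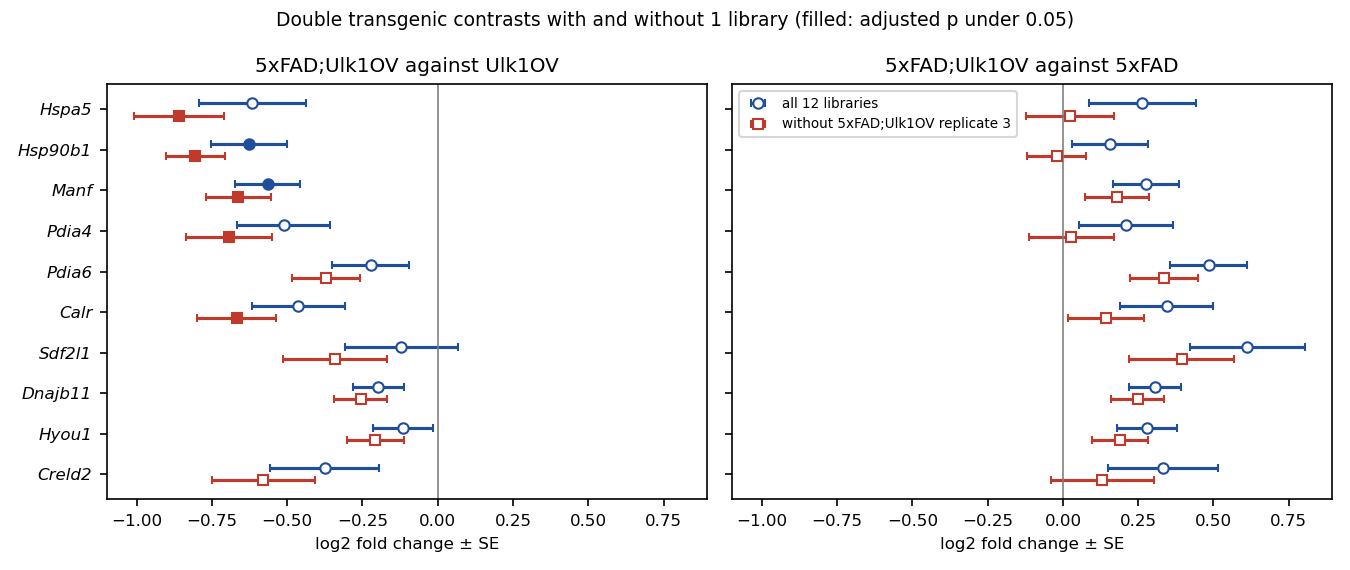
Log2 fold change ± SE (x axis) of each gene (y axis) in the 2 comparisons that use 5xFAD;Ulk1OV, with all 12 libraries (blue circles) and leaving out the library labelled 5xFAD;Ulk1OV replicate 3 (red squares), filled where the adjusted p was under 0.05. Without that library the values against Ulk1OV lie lower, with a median of -0.62 in place of -0.42, and those against 5xFAD lie nearer 0.

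5xFAD against WT shows what differs with the amyloid transgenes alone. None of the 10 genes passed the test, and edgeR called 0% of genes. Before adjustment 12.4% of all genes and 1 of the 10 had a p under 0.05, and by DESeq2 0 of the 10 were called, among 0.779%. The log2 fold changes lay between -0.32 and 0.00, with a median of -0.11. With the GC and length correction they lay between -0.26 and 0.16, with a median of -0.10, and 0 of all genes were called. Dnajb11 had 41.0, 37.0 and 40.6 CPM in 5xFAD, against 48.7, 50.6 and 48.7 CPM in WT, a difference of -0.32 ± 0.09 (adjusted p = 0.236). Hyou1 had 85.3, 70.2 and 70.0 CPM in 5xFAD, against 85.7, 86.3 and 86.4 CPM in WT (-0.20 ± 0.10, adjusted p = 0.445). These were the 2 genes with groups apart, which 9.05% of all genes were in that direction. Hspa5 averaged 233 ± 41.3 CPM in 5xFAD and 242 ± 36.4 CPM in WT (SD, n = 3 each), a log2 fold change of -0.06 ± 0.18.

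The interaction compares the Ulk1OV difference on the 5xFAD background with that on the WT background. Hsp90b1 was called, at -0.60 ± 0.18 on the log2 scale (adjusted p = 0.0433), with 0.16 ± 0.13 on the 5xFAD background and 0.76 ± 0.13 on the WT background. Calls made up 12.8% of all genes, 5.96% falling. With the GC and length correction Hsp90b1 was no longer called, at -0.38 (adjusted p = 0.182), and Manf was, at -0.59 (adjusted p = 0.0397), among 5.19% of all genes. Without the library whose label was contradicted, Hspa5 (-0.79, adjusted p = 0.0216), Hsp90b1 (-0.77, adjusted p = 0.00499) and Manf (-0.57, adjusted p = 0.0233) were called, among 14.4%. Leaving out any 1 of the other libraries except WT replicate 3 left 0 of the 10 called, with an unadjusted p under 0.05 in 2 or 3 of them and in 23.8% to 30.4% of all genes. Pdia6, Sdf2l1, Dnajb11 and Hyou1 had interaction values between -0.01 and 0.12, each smaller than its standard error.

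**Figure D3:**
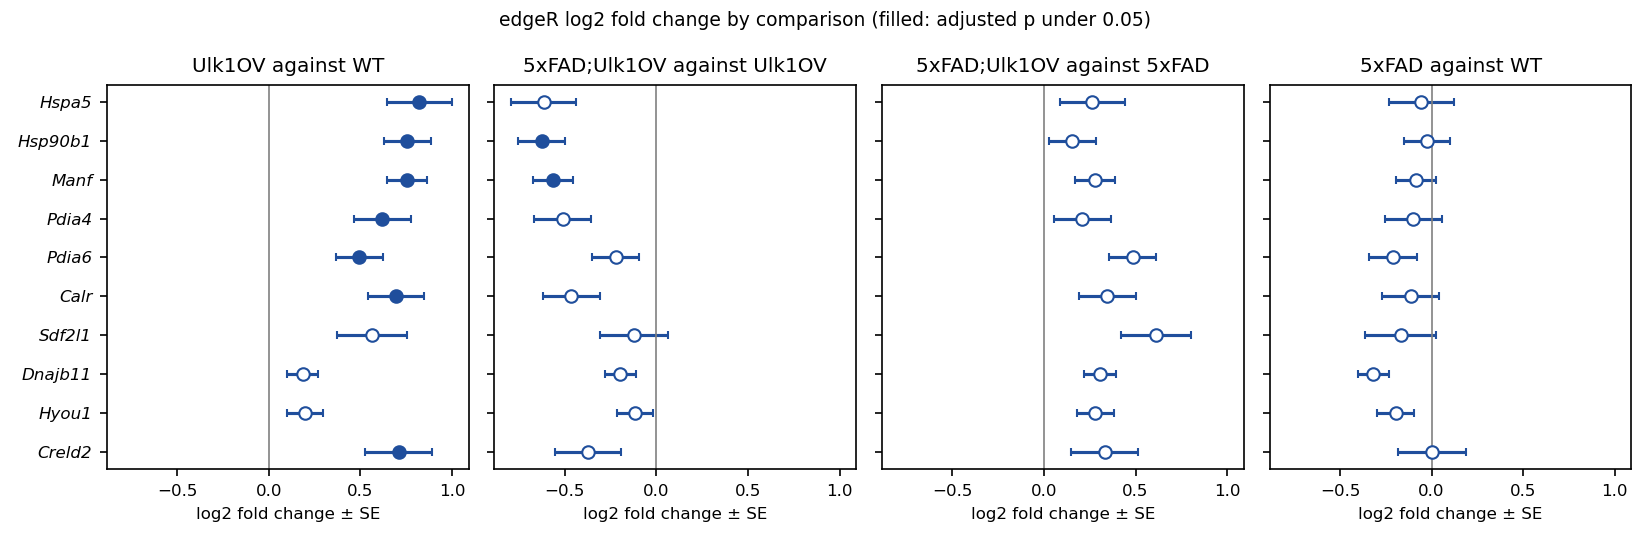
Log2 fold change ± SE (x axis) of each gene (y axis) in the 4 comparisons, filled where the adjusted p was under 0.05. The 10 genes lie right of 0 in Ulk1OV against WT, with 7 filled, and left of 0 in 5xFAD;Ulk1OV against Ulk1OV, with 2 filled.

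Across libraries the 10 genes varied together. Over the 12 libraries, the 45 pairs had a median Pearson r of 0.89 (range 0.68 to 0.98) in log2 CPM. After the group means were removed, the median was 0.78 (range 0.34 to 0.94). That value includes the library of contradicted label, in which the 10 genes lay above the rest of its group. It was not computed without that library. The points share library depth, and the first median also holds the group differences above, so these are descriptions. Hspa5 and Calr were the closest pair, and Dnajb11 had the lowest median r with the others, 0.76. The mean deviation of the 10 genes from their 12-library means was 0.34, on the log2 scale, in the library labelled 5xFAD;Ulk1OV replicate 3, against -0.16 and -0.11 in the other 2 of its group. It lay between 0.33 and 0.50 in Ulk1OV, between -0.37 and -0.15 in 5xFAD and between -0.30 and -0.05 in WT. Hyou1 spanned the smallest range over all libraries, 1.49-fold, and Hspa5 the largest, 2.30-fold.

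**Figure D4:**
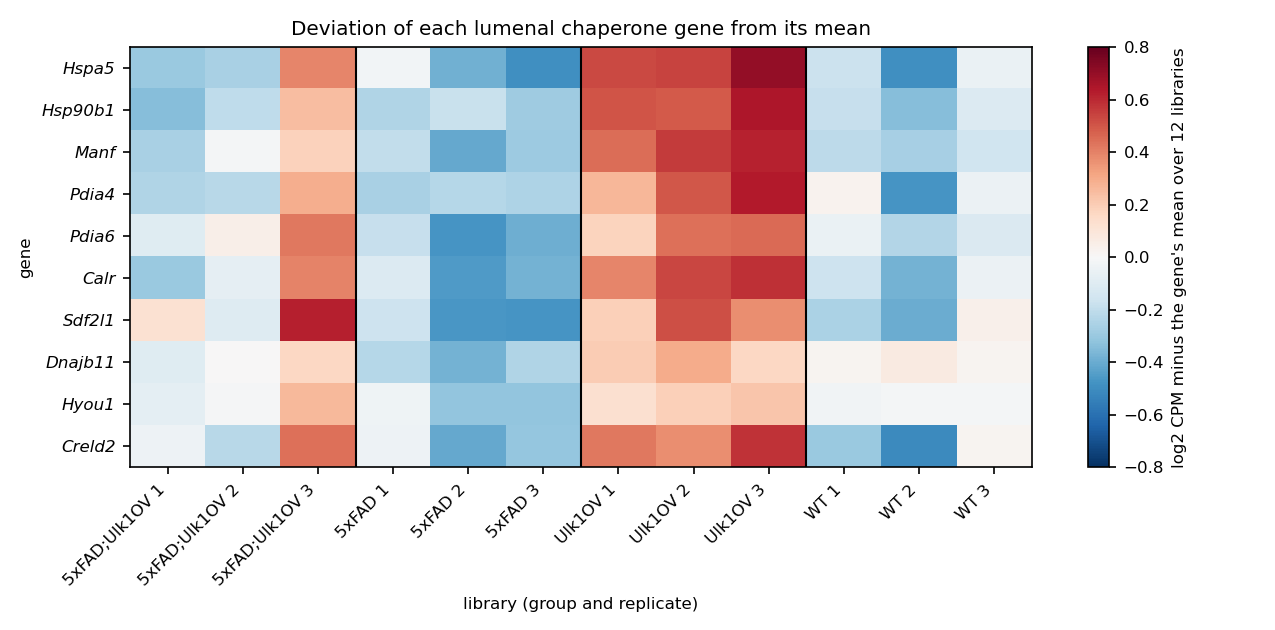
Deviation of log2 CPM from each gene's mean over 12 libraries (colour) by gene (y axis) and library (x axis, grouped by vertical lines). Red columns mark libraries in which the genes were high together: the 3 Ulk1OV libraries, with mean deviations of 0.33 to 0.50, and the library labelled 5xFAD;Ulk1OV replicate 3, with 0.34.

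Among all other tested genes, those most like the mean of the 10 over the 12 libraries included Pnpla7 (r = 0.96), a lysophospholipase of the ER membrane, and Gjb6 (r = 0.94), a connexin of astrocytes. They also included the Hsp70 to Hsp90 adaptor Stip1, the ER isomerase Pdia3, Hnrnph1, Lrrc2, Ormdl2, Ezr and Thbs4, with r between 0.92 and 0.93. Of the first 10 by r, 5 were also among the first 10 by Spearman's rho and 3 after the GC and length correction. Hnrnph1 depended on that correction, with r = 0.61 after it. Others depended on the measure, as by rho Thbs4 ranked 313 (0.69), Pdia3 134 (0.76) and Stip1 68 (0.80).

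Other genes of the ER were called in both directions in Ulk1OV against WT. Over all genes 5.17% were called, 2.14% rising, or 2.95% in either direction with the GC and length correction. Log2 fold changes above 0 made up 50.4% of all genes and unadjusted p-values under 0.05 made up 24.1%. Of 30 other folding factors, 2 rose and 3 fell, with a median log2 fold change of -0.03. Pdia3, the isomerase that works with calreticulin, had 287, 305 and 319 CPM in Ulk1OV, against 207, 194 and 218 CPM in WT, and rose by 0.56 ± 0.11 (adjusted p = 0.0251). Dnajb9, a J-domain partner of BiP, rose by 0.46 ± 0.11 (adjusted p = 0.033), while Fkbp10 (-0.83 ± 0.18, adjusted p = 0.029), a collagen chaperone, Txndc5 (-0.46 ± 0.10, adjusted p = 0.031) and Qsox1 (-0.55 ± 0.13, adjusted p = 0.035), both of disulfide formation, fell. With the GC and length correction Pdia3 was the 1 of these 5 still called. Of 3 KDEL receptors, which return escaped chaperones from the Golgi, edgeR and DESeq2 called 0, and 0 had an unadjusted p under 0.05. ER-associated degradation had 1 riser of 23 genes, Erlec1 (0.35 ± 0.09, adjusted p = 0.0446), and the translocon and glycosylation list had 2 of 26, Ssr3 (0.37 ± 0.09) and Dad1 (0.44 ± 0.11). Transport coats had 2 risers of 18, Sec24b (0.39 ± 0.08) and Arcn1 (0.28 ± 0.07), with 17 of the 18 values above 0, a median of 0.16 and 8 at an unadjusted p under 0.05. Of Erlec1 and these 4, Sec24b alone was still called with the correction.

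The sensors and transcription factors upstream of the chaperones were not called in Ulk1OV against WT. Of 13 such genes edgeR called 0. DESeq2 called 1, among 10.6% of all genes, and 4 had an edgeR p under 0.05 before adjustment, among 24.1%. Of the 13, 6 were above 0 in log2 fold change, with a median of -0.002. Xbp1, which encodes the factor spliced by IRE1, had 90.0, 107.5 and 99.1 CPM in Ulk1OV, against 79.1, 72.0 and 73.9 CPM in WT (0.40 ± 0.12, adjusted p = 0.0658). Counts per gene do not separate its spliced form. Atf6 had 89.6, 69.8 and 77.9 CPM in Ulk1OV, against 69.2, 58.4 and 67.7 CPM in WT (0.28 ± 0.10, adjusted p = 0.0979). Ern1, which encodes IRE1, and Eif2ak3, which encodes PERK, were near 0 in log2 fold change, with adjusted p-values of 0.923 and 0.995. Other genes of the list were lower in every Ulk1OV library than in every WT library. Creb3l1 had 3.49, 4.07 and 3.54 CPM in Ulk1OV, against 4.53, 5.56 and 6.52 CPM in WT. Nfyb, which encodes a subunit of NF-Y, had 49.2, 50.85 and 49.0 CPM in Ulk1OV, against 55.1, 61.0 and 59.9 CPM in WT.

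Genes downstream of PERK and ATF4 had a median log2 fold change of -0.06. Of 24 tested, 3 fell in Ulk1OV against WT: Slc7a11 (-0.77 ± 0.16, adjusted p = 0.0271), a cystine transporter, Ddit4 (-0.85 ± 0.19, adjusted p = 0.0299), an inhibitor of mTORC1, and Atf4 itself (-0.49 ± 0.11, adjusted p = 0.03). With the GC and length correction Slc7a11 was called (adjusted p = 0.0208) and Ddit4 (0.0626) and Atf4 (0.0959) were not. Ddit3, the pro-apoptotic factor CHOP, had 20.6 ± 2.89 CPM in Ulk1OV and 18.9 ± 2.31 CPM in WT (SD, n = 3 each), a log2 fold change of 0.13 ± 0.13 (adjusted p = 0.585). Of 18 heat shock genes of the cytosol and mitochondria, 3 rose: Hspa8 (0.62 ± 0.11, adjusted p = 0.0222), Hsp90aa1 (0.59 ± 0.12, adjusted p = 0.0283) and Hsph1 (0.63 ± 0.14, adjusted p = 0.0287). These 3 were also called with the GC and length correction. Of the 18, 15 were above 0, as were 50.4% of all genes, and 13 had an unadjusted p under 0.05, among 24.1%. DESeq2 called 9 of the 18, among 10.6% of all genes.

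**Figure D5:**
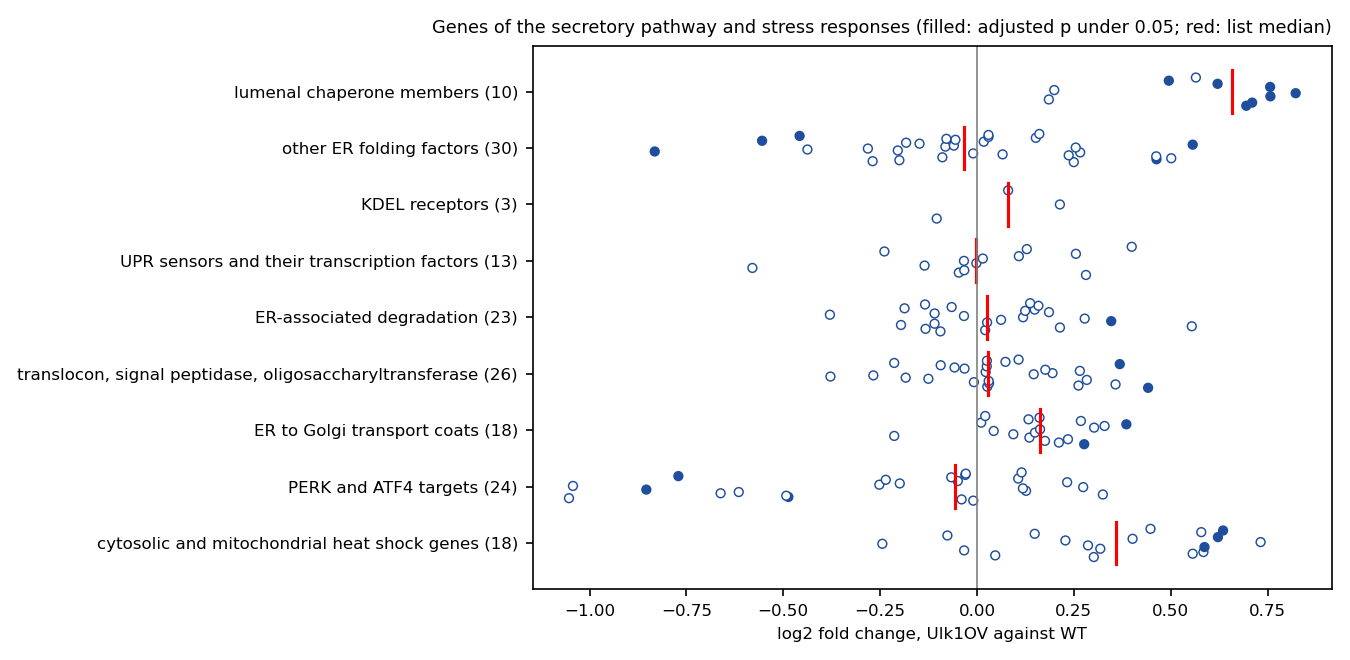
Log2 fold change in Ulk1OV against WT (x axis) of each tested gene by list (y axis, with the number tested), filled where the adjusted p was under 0.05, with the list median in red. The chaperone genes lie furthest right, with a median of 0.66, the heat shock genes have a median of 0.36, and the sensors lie around 0.

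In 5xFAD;Ulk1OV against Ulk1OV, which shares the Ulk1OV libraries, Atf6 had 60.7, 58.4 and 64.5 CPM in 5xFAD;Ulk1OV, against 89.6, 69.8 and 77.9 CPM in Ulk1OV. It fell by 0.37 ± 0.10 on the log2 scale (adjusted p = 0.042), and did so without the library of doubtful label (-0.40, adjusted p = 0.0435) but not with the GC and length correction (adjusted p = 0.109). Atf4 had 119, 124 and 151 CPM in 5xFAD;Ulk1OV, against 75.3, 87.4 and 75.2 CPM in Ulk1OV, and rose by 0.73 ± 0.11 (adjusted p = 0.014), or 0.63 without that library (adjusted p = 0.00789). Its groups did not overlap. Pdia3 fell, at -0.50 ± 0.11 (adjusted p = 0.0215), and without that library at -0.63 (adjusted p = 0.00541). Over all genes 6.1% were called, or 2.3% with the GC and length correction. Of the 24 PERK and ATF4 targets 4 rose, or 2 with the correction. Of the 18 heat shock genes Hspa8 (-0.50 ± 0.11, adjusted p = 0.0267) and Hsp90aa1 (-0.54 ± 0.12, adjusted p = 0.0273) fell. With the correction neither of the 2 heat shock genes was called, at adjusted p-values of 0.0653 and 0.0622.

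Other lists moved in Ulk1OV against WT. Of 14 activity-induced genes, which neurons switch on when they fire, 11 fell, among them Egr1 with a log2 fold change of -1.19 and Junb with -1.33. Calls in either direction made up 5.17% of all genes. With the GC and length correction 8 of the 14 fell, among 2.95% of all genes called. Of 17 clock and cold-shock genes 3 fell, and 3 with the correction, with Cirbp at -0.89 ± 0.20 without it (adjusted p = 0.0311). Of 10 markers of meningeal and perivascular fibroblasts, which secrete collagen, 7 fell, or 5 with the correction, and none was at 0 in all libraries of a group. Their summed level was 200 to 240 CPM in Ulk1OV, against 314 to 411 CPM in WT. Of the mural cell markers 2 of 6 fell, and 2 with the correction, with sums of 91.7 to 107 CPM in Ulk1OV, against 140 to 192 CPM in WT. Choroid plexus markers ran from 304 to 5942 CPM in Ulk1OV, against 282 to 8483 CPM in WT, and edgeR and DESeq2 called 0 of the 10, with 0 at an unadjusted p under 0.05. Markers of astrocytes summed to 7082 to 7432 CPM in Ulk1OV, against 6166 to 6971 CPM in WT, without overlap. By edgeR and DESeq2 0 of the 6 were called, and 0 had an unadjusted p under 0.05. Markers of interneurons summed to 1201 to 1292 CPM in Ulk1OV, against 910.5 to 1128 CPM in WT, also without overlap. Of these 6 markers 5 were above 0 in log2 fold change and edgeR called 0, with 1 at an unadjusted p under 0.05 and 1 called by DESeq2. The part of these differences, and of the mitochondrial share, in the rise of the chaperone genes was not tested.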

How the data were processed

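The data are 12 RNA-seq libraries of mouse hippocampus. The authors deposited whole-number read counts per gene, not normalized. The submitters' processing notes name FastQC, Trim Galore, HISAT2, SAMtools, featureCounts, DESeq2 and mm10, and the annotation and settings are not given there. From these counts edgeR 4.0.16 (R 4.3.3) gave TMM scaling, CPM and the quasi-likelihood test with Benjamini-Hochberg adjustment over 17227 genes that passed filterByExpr by group, with 1 mean per group over all 12 libraries. The SE was derived from the log2 fold change and the F statistic. RPKM used exon lengths of GENCODE M21, and positions are those of GRCm38. Likeness was ranked by Pearson's r of log2 CPM. Alternatives were DESeq2 1.42.0, no low-count filter, a loess correction for GC content and transcript length (span 0.4), a replicate block and leaving out each library. The 10 genes were always named, as were up to 4 genes of each other list with the smallest p in Ulk1OV against WT and up to 2 in other comparisons, Atf6, Ern1, Xbp1, Eif2ak3 and Ddit3, and the 10 genes most alike in pattern, of which 1 is not reported here. Qsox1, the last of 5 called folding factors, was named after its values were seen. The members and lists were chosen with earlier results of these data known. Named promoter matches used Python 3.11.15. An exact permutation test of 3 against 3 libraries cannot give a two-sided p below 0.1, so none is used.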

Additional observations from a re-analysis of the deposited data

Results flagged for a closer look

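The Ulk1OV difference on the 5xFAD background was compared with that on the WT background. This interaction was called for Hsp90b1, which encodes GRP94, at -0.6016 on the log2 scale (edgeR's quasi-likelihood test, adjusted p = 0.0433). Calls made up 12.8% of all genes in that test, and with the GC and length correction the value was -0.38 (adjusted p = 0.182).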

How the results depend on the processing

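In Ulk1OV against WT all 10 genes kept a positive log2 fold change under every alternative run, and 0 to 7 were called when single libraries were left out. There were 891 genes called, against 1820 by DESeq2, 2079 with no filter, 508 with the GC and length correction, 451 with that correction and the replicate block, and 0 to 1294 without single libraries. Sdf2l1 was called with no filter, among 6.57% of genes, and with the correction and the block, among 2.62%. It was also called with the correction without 5xFAD;Ulk1OV replicate 3, among 4.33%.

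In 5xFAD;Ulk1OV against Ulk1OV (2 of the 10, 1051 genes), DESeq2 called 5 (1958 genes, 11.4%) and no filter 5 (2097, 6.63%). The replicate block gave 4 (1206, 7%) and the 6 libraries of the comparison alone 1 (430, 2.61%). The correction gave 2 (396, 2.3%), and 2 with the block (334, 1.94%). The correction without 5xFAD;Ulk1OV replicate 3 gave 6 (709, 4.03%). Leaving out single libraries gave 0 to 5 (0 to 1629 genes).

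In 5xFAD;Ulk1OV against 5xFAD (0, 8 genes), DESeq2 called 2 (632 genes, 3.67%) and no filter 2 (901, 2.85%), while DESeq2 size factors gave 18 genes. The replicate block, the 6 libraries alone, the correction, the correction with the block and the correction without that library gave 0 genes each. Single libraries gave 0 to 260 genes. In 5xFAD against WT (0), DESeq2 called 134 genes, no filter 551, the 6 libraries alone 2, the correction with the block 1, the correction without that library 5 and single libraries 0 to 39. In the interaction (1, 2197 genes), DESeq2 called 2 of the 10, among 16.5% of genes, and no filter 2, among 8.97%. The correction gave 894 genes, and 801 with the block. The correction without that library gave 1093 genes, or 6.21%, and 3 of the 10. Single libraries gave 974 to 2596 genes and 0 to 3 of the 10.

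Signs turned in genes not called. In 5xFAD against WT, Creld2 was -0.0051 with DESeq2 and with its size factors and -0.0099 with the 6 libraries. Sdf2l1 was 0.0333 with the correction, 0.0478 with the block added and 0.0205 without that library. Single libraries gave -0.1237 to 0.1568 for Creld2, -0.2207 to 0.0382 for Hspa5 and -0.0871 to 0.0273 for Hsp90b1. In 5xFAD;Ulk1OV against 5xFAD, Hsp90b1 ran from -0.0214 to 0.2703, and Creld2 was -0.107 with the correction without that library. In 5xFAD;Ulk1OV against Ulk1OV, Sdf2l1 ran from -0.3412 to 0.0291. In the interaction, Pdia6 was 0.001 with DESeq2 and with its size factors and -0.1481 to 0.0991 over single libraries. Sdf2l1 was -0.3726 with the correction, -0.4133 with the block, -0.6197 without that library and -0.1596 to 0.1978 over single libraries. Hyou1 was -0.028, -0.0312 and -0.1132 under the same 3 settings, and Dnajb11 -0.014 under the last. The causes were not tested. The correction without that library was chosen after seeing the data.

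Replicate numbers did not pair libraries: deviations of same-numbered libraries correlated at -0.183 to 0.159.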

Other observations

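The ER stress response element also occurred in the promoter windows of 32 genes outside the 10 chaperones, of which 17 were tested. In Ulk1OV against WT, 14 of these 17 had a log2 fold change above 0, as did 50.4% of all genes. Their median was 0.25, against 0.00 over all genes. edgeR called 0 of them, among 5.17% of all genes, and DESeq2 called 3, among 10.6%. An unadjusted p under 0.05 was found for 3 of the 17, among 24.1% of all genes. Those 3 by unadjusted p were Canx, the membrane-bound relative of calreticulin (0.25, adjusted p = 0.0582), Dnajc3, a J-domain protein of the lumen (0.46, adjusted p = 0.0609), and Hnrnpa3, an RNA-binding protein (0.32, adjusted p = 0.0543).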
